A study of Mus musculus with 8 samples.

Results

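The genes described are those of the mitochondrial respiratory chain and of the ATP synthase, taken by symbol: names starting with Nduf, Uqcr, Cox4 to Cox8 or Atp5, and Sdha, Sdhb, Sdhc, Sdhd, Cyc1 and Cycs. The array carried 95 of them, each read by its brightest probe, and 94 passed the filter of a probe well above background on at least 2 arrays, among 26460 genes and unnamed transcripts tested. Cox8c, a testis form of a cytochrome c oxidase subunit, was not well above background on any array and was not tested. By role the 94 are 36 subunits of complex I, 8 complex I assembly factors, 4 subunits of complex II, 9 of complex III, cytochrome c, 17 of complex IV, 17 of complex V, and the pair Ndufa4 and Ndufa4l2.

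Complex I takes electrons from NADH and complex II takes them from succinate, and both pass them to coenzyme Q. Complex III hands them on to cytochrome c, and complex IV to oxygen, while the proton gradient built on the way drives the ATP synthase, complex V. White fat precursors are known to make more mitochondria as they turn into fat cells. A few core subunits are made from mitochondrial DNA; symbols starting with mt- were not matched and are not analysed here.

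RNA came from 3T3-L1 cells, a mouse preadipocyte line, on 1-colour Agilent arrays, with 1 array for each of 2 lines on each of days -2, 0, +2 and +4 of adipogenesis. The WT line is wildtype 3T3-L1. The sh8 line is 3T3-L1 stably transfected with shRNA-8 against the long noncoding RNA slincRAD; no line with a control hairpin and no level of slincRAD is analysed here, and the labels do not say whether sh8 is a clone or a pool. Both lines grew in medium with 10% newborn calf serum, and from day 0, set at confluence by the protocol, in an induction medium (MDI) holding 167 nM insulin, 1 µM dexamethasone and 0.5 mM isobutylmethylxanthine. The sample labels name MDI for all 4 days, day -2 included. The comparison of sh8 with WT asks how the knockdown line differs, and that of the days how the genes move over differentiation.

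All values below are relative log2 levels: the log2 of a probe's intensity minus that of its array's 75th percentile, which lay between an intensity of 760 and 1239. They are compared within a probe, never between probes. Days -2 and 0 were read in a first scan and days +2 and +4 in a second, with 64.9% to 68.5% and 72.4% to 81.7% of probes well above background, and WT sat on array positions 1 and 2 and sh8 on 3 and 4 in both scans. Scan and the step from day 0 to day +2 therefore cannot be told apart, nor can line and array position. With 1 array per line and day, and nothing in the labels on separate cultures, p-values measure only how the difference between the lines varied over the 4 days. All 9 preadipocyte and fibroblast markers on the array were well above background on every array, but of the fat cell markers Adipoq and Cfd were not on any array of days -2 and 0. Of the lung epithelium markers, 13 of 13 were well above background on every array of the second scan, against 5 to 7 in the first.

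Across the 4 days 23 of the 94 genes were lower in sh8 than in WT, 3 were higher and 68 did not pass an adjusted p of 0.05 (limma, Benjamini-Hochberg over everything tested). At an unadjusted p under 0.05 it was 34 lower and 5 higher (16.5% and 27.4% of everything tested). Over all genes and transcripts 10.3% were called lower and 16.8% higher, so the called lower share of these genes, 24.5%, was above that of the array and the called higher share, 3.19%, below it. The median difference was -0.21 for the 94 and 0.13 for everything tested, on the log2 scale. In 27 genes all 4 sh8 arrays lay below all 4 WT arrays (7.09% of everything tested), and in Cox4i2 and Cox6b2 all lay above (10.2%). Both counts of lower genes include Cox7b2, which was not well above background on any sh8 array; without it they were 22 of 93 (23.7%) and 26. Complex I and complex V held 16 of the 23 lower genes, and the 3 higher ones were Cox6b2, Cox4i2 and Ndufaf3. In whole-cell RNA fewer cells of a type and less RNA per cell cannot be told apart. With quantile scaling the members split into 17 lower and 3 higher, and the whole array into 2570 lower and 2642 higher calls in place of 2723 and 4434; each of the 26 calls kept its sign under every setting tried in which it was tested. Without day 0, day +2 or day +4 none of them passed, and without day -2 14 did. Over everything tested 79, 0, 0 and 4206 passed when day 0, +2, +4 or -2 was left out. Within the first scan 0 members passed and within the second 10, with medians of -0.15 and -0.28. In the first scan 0 and in the second 5164 of everything tested passed.

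**Figure D1:**
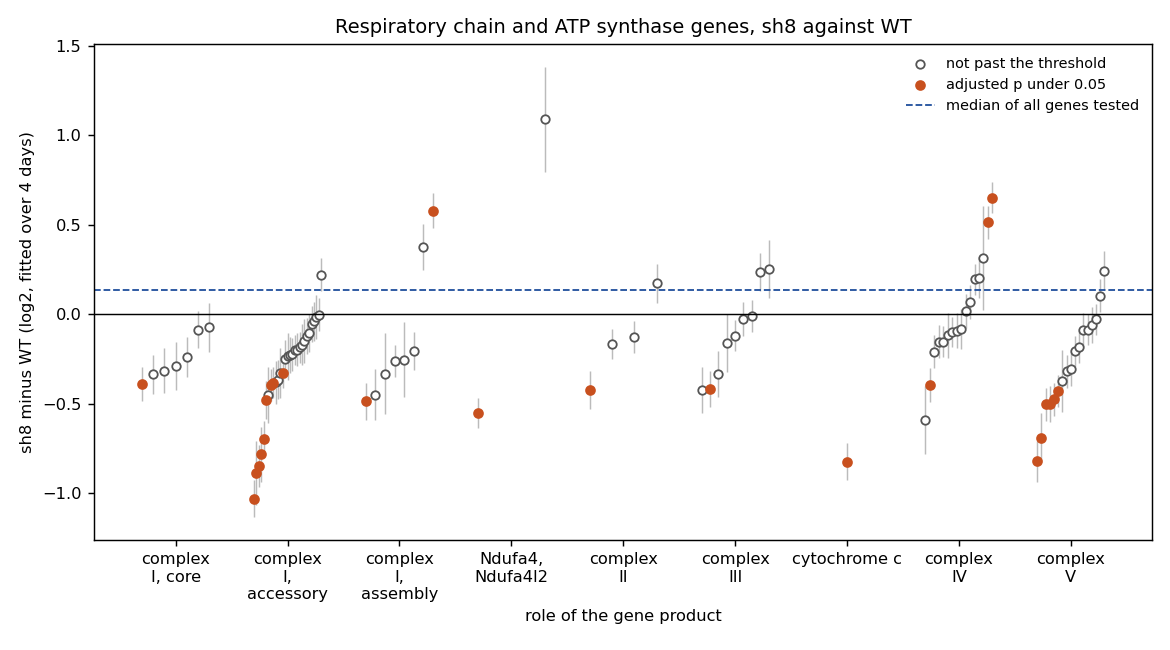
Fitted difference of sh8 from WT over 4 days (log2, vertical axis) for 93 of the 94 genes, ordered by size within each role (horizontal axis). Points are genes, bars are 1 standard error, filled points passed an adjusted p of 0.05, and the dashed line is the median of all genes tested at 0.13. Most points of complex I and complex V lie below 0. Cox7b2 is left out, since it was not well above background on any sh8 array.

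In complex I the accessory subunits are the outer parts that stabilise the enzyme. Of 29 of them 9 were lower in sh8 and none was higher, and 28 of the 29 had a negative difference. Over everything tested 10514 of 26460 had a negative difference. Ndufb2, a small subunit of the membrane arm, read 4.24, 4.29, 4.27 and 4.53 in WT and 3.44, 3.22, 3.13 and 3.41 in sh8 on days -2, 0, +2 and +4, the order used throughout. The 4 sh8 arrays were all below the 4 WT arrays, the gap was smallest on day -2, and the fitted difference was -1.03 ± 0.10 (SE, limma adjusted p = 0.0115), a 2.04-fold lower signal. Ndufa5, of the arm that reaches into the matrix, gave 4.70, 4.84, 4.88 and 5.05 in WT against 4.17, 3.98, 3.92 and 4.03 in sh8. WT read higher on each later day while sh8 lay between 3.92 and 4.17, so that the groups did not overlap (-0.85 ± 0.12, adjusted p = 0.0161). A second Ndufa5 probe gave -0.97.

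Ndufb4, another membrane arm subunit, stood at 5.70, 6.03, 5.81 and 5.91 in WT and at 5.11, 5.20, 4.99 and 5.35 in sh8. All sh8 arrays were lower, by 0.56 to 0.83 (-0.70 ± 0.10, adjusted p = 0.0168; -0.79 for its second probe). Ndufa9, which sits where the arms meet, read lower on each later day in sh8, at 2.85, 2.48, 2.09 and 1.85, while WT had 3.26, 3.13, 2.97 and 3.03. Its gap was 0.41 on day -2 and 1.19 on day +4, with no overlap (-0.78 ± 0.15, adjusted p = 0.0272). Ndufab1, the mitochondrial acyl carrier protein that is also a complex I subunit, read -0.44, -0.92, -0.56 and -0.48 in WT and -0.80, -1.73, -1.61 and -1.79 in sh8. Here the day -2 array of sh8 lay above the day 0 array of WT, so the groups overlapped (-0.89 ± 0.18, adjusted p = 0.0280).

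The other accessory subunits called lower were Ndufb6 (-0.48), Ndufb10 (-0.40), Ndufa13 (-0.38) and Ndufa8 (-0.33). Their adjusted p lay between 0.0330 and 0.0485, and each lost the call under at least 2 of the 8 other settings run on all arrays. Ndufs4, a subunit whose loss in people causes Leigh syndrome, a severe neurological disease of early life, did not pass (-0.45, adjusted p = 0.0893), although its sh8 arrays, 3.56, 3.39, 3.35 and 3.53, all lay below the WT arrays, 3.61, 3.70, 4.15 and 4.17. Ndufa10 was the only accessory subunit with a positive difference, 0.22 (adjusted p = 0.133). Ndufb11 had probes of opposite sign, -0.22 and 0.36.

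Among the 7 core subunits, which carry the flavin and the iron-sulfur clusters, all differences were negative, from -0.39 to -0.074, and 1 passed. That was Ndufs8, which holds iron-sulfur clusters, at 0.75, 0.38, 0.10 and 0.33 in WT against 0.47, 0.04, -0.28 and -0.23 in sh8. Each sh8 array was below the WT array of its day, but the ranges overlapped (-0.39 ± 0.10, adjusted p = 0.0427). Ndufv1, the subunit that binds NADH, came next (-0.34, adjusted p = 0.0799). On day -2 the core subunits had a median difference of 0.011, with 2 of 7 lower in sh8; on days +2 and +4 all 7 were lower, with medians of -0.37 and -0.41.

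The 8 assembly factors build complex I without staying in it. Ndufaf1, which acts on the membrane arm, was lower in sh8, at 1.34, 1.28, 1.08 and 1.05 against 1.64, 1.74, 1.57 and 1.74 in WT. No sh8 array reached the lowest WT array (-0.49 ± 0.10, adjusted p = 0.0320). Ndufaf3, an early factor, went the other way: it read -1.92, -1.51, -1.29 and -1.27 in WT and -1.49, -0.99, -0.62 and -0.57 in sh8. Both lines read higher on later days, and sh8 was higher on each day by 0.43 to 0.70 (0.58 ± 0.10, adjusted p = 0.0213). Ndufaf5, which modifies a core subunit, had probes of opposite sign, 0.38 (adjusted p = 0.0870) and -0.75, so no direction is given for it.

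Of complex II, the succinate dehydrogenase shared with the citric acid cycle, Sdha alone was called lower. This flavoprotein subunit read 3.41, 3.71, 3.59 and 3.72 in WT and 3.23, 3.24, 3.09 and 3.19 in sh8. The groups did not overlap, and the gap was smallest on day -2 (-0.42 ± 0.11, adjusted p = 0.0432). The iron-sulfur subunit Sdhb (-0.16, adjusted p = 0.199) and the membrane anchors Sdhc (-0.13, 0.319) and Sdhd (0.17, 0.283) did not pass.

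Complex III had 1 of 9 subunits lower, 11.1% beside 10.3% of everything tested. Uqcrq, a small subunit, read 5.26, 5.13, 5.17 and 5.36 in WT and 5.05, 4.66, 4.70 and 4.84 in sh8. No sh8 array reached the WT range (-0.42 ± 0.10, adjusted p = 0.0399; -0.44 for its second probe). Uqcrb, another small subunit, missed the threshold with the probe used (-0.42, adjusted p = 0.0665), and its other probes gave -0.46 and -0.55. Cyc1, the cytochrome c1 that passes electrons on to cytochrome c, had 2.59, 2.02, 2.21 and 2.38 in WT and 3.23, 2.41, 2.39 and 2.18 in sh8. It was higher in sh8 on the first 3 days and lower on day +4, and did not pass (0.25 ± 0.16, adjusted p = 0.281).

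Cycs, the cytochrome c that carries electrons between complexes III and IV, was lower in sh8. WT read 5.28, 4.75, 5.31 and 5.48, and sh8 4.66, 3.90, 4.31 and 4.67. The lines were lowest on day 0, and every sh8 array was below every WT array (-0.82 ± 0.10, adjusted p = 0.0141, 1.77-fold lower). The other Cycs probes gave -0.85 and, for one that was well above background on 6 arrays, -0.37.

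Complex IV was mixed, with 2 genes lower and 2 higher of 17 (11.8% each), beside 10.3% and 16.8% of everything tested. Without Cox7b2, which was not well above background on any sh8 array, 1 was lower. Cox4i1, the widespread form of subunit 4, read 4.84, 4.88, 4.84 and 5.14 in WT and 4.51, 4.51, 4.50 and 4.59 in sh8. All sh8 arrays were lower (-0.40 ± 0.09, adjusted p = 0.0385). Cox4i2, the form of the same subunit known from lung and from cells short of oxygen, had 0.96, 0.50, 0.82 and 0.83 in WT and 1.34, 1.11, 1.38 and 1.33 in sh8. All sh8 arrays were higher (0.51 ± 0.09, adjusted p = 0.0230), so the forms of this subunit were called in opposite directions. The Cox4i1 call held under 3 of the 8 other settings run on all arrays, and the Cox4i2 call under all 8. Because Cox4i2 is also a lung gene, the lung epithelium list was set beside it. Of the 13 tested genes of that list 3 were higher in sh8 and 1 lower, but in the first scan only 5 to 7 were well above background. The summed linear level of the list was 22.5 to 35.1 in the second scan and 8.78 to 11.1 in the first. Cox4i2 differed by 0.38, 0.61, 0.56 and 0.51 on the 4 days. The part of lung transcripts in the Cox4i2 result was not tested.

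Cox6b2, the testis form of subunit 6B, read -1.35, -1.54, -1.40 and -1.47 in WT and -0.63, -0.87, -0.82 and -0.83 in sh8. Every sh8 array was higher, by 0.58 to 0.71 (0.65 ± 0.09, adjusted p = 0.0150), while its widespread partner Cox6b1 did not pass (0.20, adjusted p = 0.224). Cox7b2, a testis form of subunit 7B, was called lower (adjusted p = 0.0305), but it was well above background on the WT arrays of days -2 and +4 and on no sh8 array. No difference is given for it, and the call was lost with normexp. Its widespread partner Cox7b did not pass (-0.21, adjusted p = 0.148). The heart and muscle forms Cox6a2 (-0.59, adjusted p = 0.0756), Cox7a1 (0.069, 0.597) and Cox8b (0.31, 0.444) did not pass between the lines, and neither did Cox6a1 (-0.15, 0.266), Cox7a2 (0.19, 0.152), Cox7a2l, a factor that joins complexes III and IV (-0.083, 0.591), or Cox8a (-0.15, 0.242).

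Ndufa4, first assigned to complex I and now counted with complex IV, read 5.70, 5.69, 5.54 and 5.76 in WT and 5.16, 5.10, 5.02 and 5.23 in sh8. The gap was nearly the same on each day, 0.53 to 0.59, with no overlap (-0.55 ± 0.08, adjusted p = 0.0181). Its relative Ndufa4l2, a target of the hypoxia factor HIF-1, had a difference of the other sign that did not pass: -4.40, -3.13, -2.82 and -1.96 in WT and -3.93, -1.18, -1.39 and -1.46 in sh8. The difference was 0.47, 1.95, 1.43 and 0.51 on the 4 days, so sh8 was higher throughout and most of all on days 0 and +2 (1.09 ± 0.30, adjusted p = 0.0522).

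Complex V had 6 of 17 genes lower and none higher. Atp5md, a small subunit of the membrane part, read 3.74, 3.80, 3.81 and 4.05 in WT and 3.19, 2.86, 3.03 and 3.03 in sh8. The ranges were apart by more than 0.5, and the gap was smallest on day -2 (-0.82 ± 0.12, adjusted p = 0.0163). Atp5o, the stalk subunit that gives the enzyme its oligomycin sensitivity, had 3.85, 3.89, 3.92 and 4.09 in WT against 3.53, 3.22, 3.12 and 3.12 in sh8. The lines stood 0.32 apart on day -2 and 0.97 apart on day +4 (-0.69 ± 0.14, adjusted p = 0.0271).

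Atp5k, subunit e of the membrane part, read 5.08, 5.29, 5.20 and 5.50 in WT and 4.72, 4.70, 4.72 and 4.92 in sh8, without overlap (-0.50 ± 0.09, adjusted p = 0.0250; -0.51 for its second probe). Atp5c1, the central shaft that turns in the catalytic head, had 4.23, 4.39, 4.55 and 4.73 in WT and 3.87, 3.91, 3.99 and 4.21 in sh8. It read higher on each later day in both lines, with sh8 below WT throughout (-0.48 ± 0.09, adjusted p = 0.0253); its second probe gave -0.24, and the call was lost with the mean of the probes. Atp5j, of the stalk (-0.50), and Atp5j2, of the membrane part (-0.43), were lower too, with adjusted p = 0.0284 and 0.0295. The second Atp5j2 probe gave -0.25, and the call was lost with the mean of the probes (adjusted p = 0.0570). Atp5a1 (-0.18, adjusted p = 0.176) and Atp5b (-0.061, 0.664), the catalytic head itself, did not pass.

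**Figure D2:**
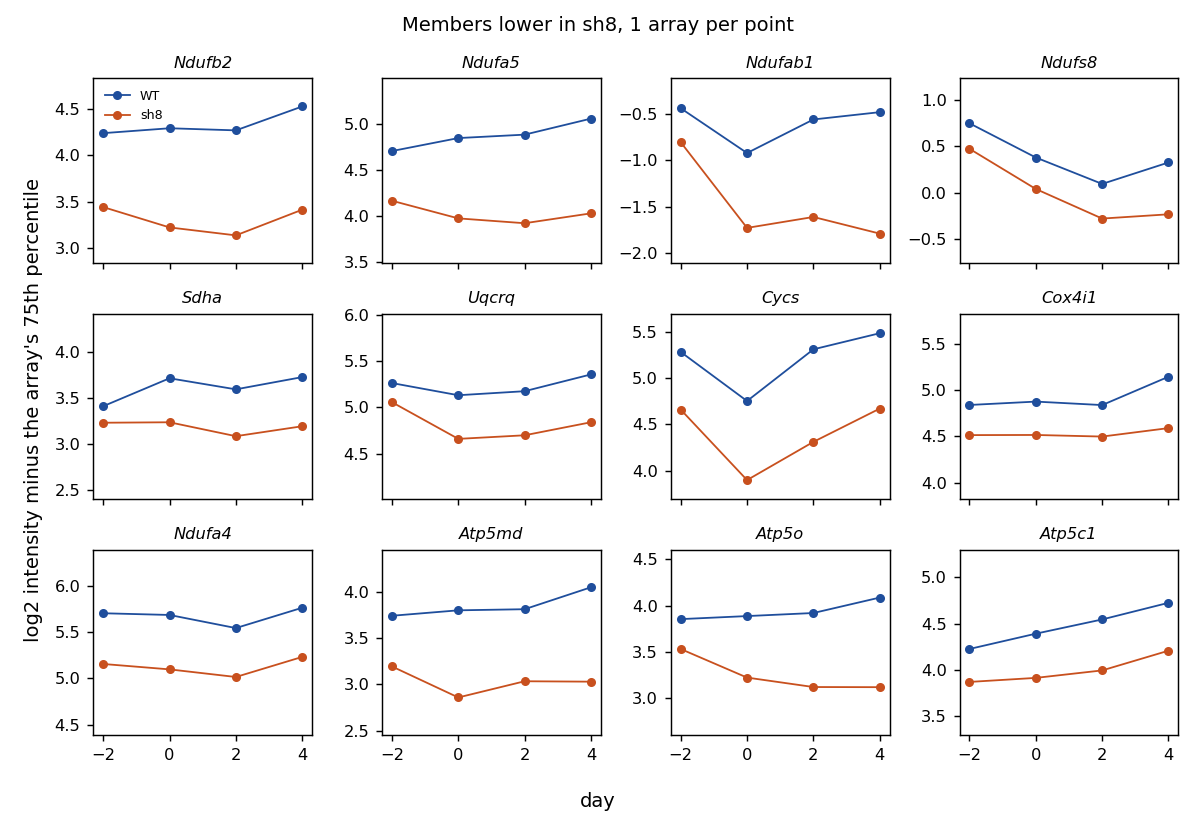
Relative log2 level (log2 intensity minus the array's 75th percentile, vertical axis, each panel with its own range of at least 2 units) against day for 12 genes called lower in sh8. Each point is 1 array, in blue for WT and orange for sh8. In every panel the sh8 array lies below the WT array of the same day, and for Ndufb2 the lines differ by 0.80 to 1.14.

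On single days, where 1 array stands against 1 and no test was made, the number of the 94 genes lower in sh8 was 57 on day -2, 73 on day 0, 75 on day +2 and 79 on day +4. Of everything tested 42.3%, 43.9%, 41.5% and 39.8% were lower on these days. The median of the 94 was -0.086, -0.21, -0.26 and -0.30, and that of everything tested 0.10, 0.083, 0.15 and 0.16. In 50 genes sh8 was lower on all 4 days (20.4% of everything tested), and in 10 it was higher on all 4 (32.3%). A gap of 1 log2 unit or more below WT was seen for 1 gene on days -2 and 0 each (4.91% and 4.95% of everything tested) and for 6 genes on days +2 and +4 each (5.52% and 5.22%). The gene was Cox7b2 on day -2 and Ndufb2 on day 0. Without Cox7b2, which was not well above background in sh8, the counts were 0, 1, 5 and 5. On day +4 the 5 were Ndufab1 (-1.31), Ndufa9 (-1.19), Ndufb2 (-1.12), Ndufa5 (-1.02) and Atp5md (-1.02).

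**Figure D3:**
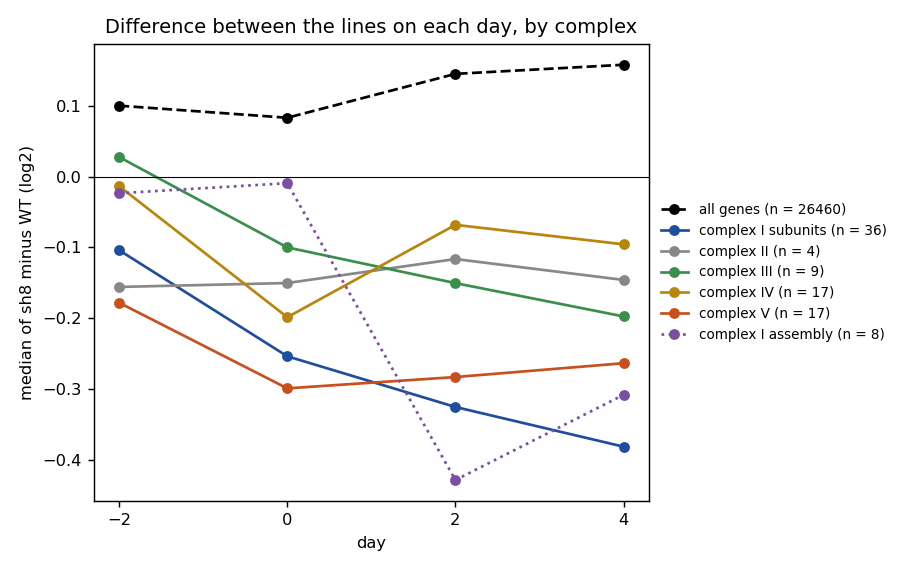
Median of sh8 minus WT (log2, vertical axis) on each day (horizontal axis) for the genes of each complex and for all genes tested. Each point is a median over the number of genes given in the legend, from 1 array per line. Complex I subunits go from -0.10 on day -2 to -0.38 on day +4, and all genes tested lie between 0.083 and 0.16.

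Whether the lines differed more after induction was tested as an interaction of line with days +2 and +4, and none of the 94 genes passed (0% of everything tested). At an unadjusted p under 0.05 by limma 3 of the 94 were negative and none positive (7.95% and 11.9% of everything tested). The interaction was negative for 69 of 94 (13388 of 26460 over everything tested), with a median of -0.15 against -0.0068 for everything tested. Without either array of day -2 it was negative for 61, with a median of -0.058 against -0.013, and with the percentile over detected probes the median was -0.086 against 0.056. The 3 genes were Ndufaf6, Ndufs4 and Ndufaf5. For Ndufaf5 the probe used gave -0.42 and its second probe 0.28, so no direction is given for it. Ndufaf6, an assembly factor, read 0.60, 0.23, 1.01 and 1.02 in WT and 0.79, 0.38, 0.27 and 0.40 in sh8. It was slightly higher in sh8 on days -2 and 0 and lower on days +2 and +4 (-0.85 ± 0.14, adjusted p = 0.133). It passed with normexp (adjusted p = 0.0341) and over probes well above background on all 8 arrays (0.0392). Over everything tested 1112 of 26460 and 1118 of 19780 passed under these settings. Ndufs4 gave -0.54 (adjusted p = 0.231).

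The promoters of the called genes were read for sites of factors known to drive respiratory genes. RefSeq windows (GRCm38.p6) from 250 bases before to 50 after a gene's start were matched for 77 of the 94 genes, and searched on both strands for the NRF1 site (GCGC, any base, TGCGC), the core CCGGAAG of ETS factors such as GABP, and the cAMP response element TGACGTCA. In the 250 bases before the start no match of one motif overlapped a match of another, and the last motif was added after windows had been read. The NRF1 letters were in 24.7% of the 77 and in 4.60% of all windows, the ETS letters in 24.7% and 8.86%, and the cAMP element in 6.49% and 1.79%. The 77 were counted by gene, with a match in any window of the gene, and all windows were counted singly. Genes such as Atp5c1 and Ndufa5 had 2 windows, so these shares have unlike units. Among 21 genes called lower in sh8 with a window, 7 held the NRF1 letters, 6 the ETS letters and 2 the cAMP element, and among 54 not called the numbers were 12, 13 and 3. Neither window of the genes called higher held any of the motifs. A match is a description of letters, not a shown site. The 250 bases before the start are printed for the genes with the cAMP element or at least 3 NRF1 matches among those called lower, and for both higher genes with a window, with matches in capitals.
Ndufb2, chr6:39592315-39592564, plus strand: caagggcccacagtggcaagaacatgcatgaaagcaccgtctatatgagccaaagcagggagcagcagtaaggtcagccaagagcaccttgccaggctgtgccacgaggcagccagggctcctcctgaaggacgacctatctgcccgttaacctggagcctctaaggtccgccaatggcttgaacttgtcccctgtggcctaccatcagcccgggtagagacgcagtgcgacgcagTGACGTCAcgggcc
Cycs, chr6:50566570-50566819, minus strand: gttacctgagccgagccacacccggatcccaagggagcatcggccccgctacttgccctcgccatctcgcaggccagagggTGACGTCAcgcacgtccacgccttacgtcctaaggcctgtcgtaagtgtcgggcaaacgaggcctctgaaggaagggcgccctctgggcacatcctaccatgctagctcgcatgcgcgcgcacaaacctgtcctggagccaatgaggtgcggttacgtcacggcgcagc
Ndufb4, chr16:37654369-37654618, minus strand: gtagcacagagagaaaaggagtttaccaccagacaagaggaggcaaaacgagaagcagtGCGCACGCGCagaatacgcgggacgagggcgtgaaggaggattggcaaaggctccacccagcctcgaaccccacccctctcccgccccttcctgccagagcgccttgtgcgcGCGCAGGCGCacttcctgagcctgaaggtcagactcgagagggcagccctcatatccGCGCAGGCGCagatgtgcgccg
Sdha, chr13:74350241-74350490, minus strand: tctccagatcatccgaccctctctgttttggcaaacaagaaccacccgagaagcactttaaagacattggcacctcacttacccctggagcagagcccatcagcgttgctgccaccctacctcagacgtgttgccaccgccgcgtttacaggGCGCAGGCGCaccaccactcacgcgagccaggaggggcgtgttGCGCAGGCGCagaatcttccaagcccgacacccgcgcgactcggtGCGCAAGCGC
Ndufaf3, chr9:108567437-108567686, minus strand: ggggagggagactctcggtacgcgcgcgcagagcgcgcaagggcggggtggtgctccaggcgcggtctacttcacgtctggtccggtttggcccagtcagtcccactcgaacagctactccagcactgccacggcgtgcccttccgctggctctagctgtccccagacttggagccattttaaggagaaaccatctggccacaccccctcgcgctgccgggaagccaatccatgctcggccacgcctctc
Cox6b2, chr7:4753095-4753344, minus strand: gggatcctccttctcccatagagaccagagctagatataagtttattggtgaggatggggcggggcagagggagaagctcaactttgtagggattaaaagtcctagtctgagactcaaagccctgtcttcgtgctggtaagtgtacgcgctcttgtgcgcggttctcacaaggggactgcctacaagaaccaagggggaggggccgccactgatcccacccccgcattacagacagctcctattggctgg
The element of Ndufb2 lay 14 to 7 bases before its start, and that of Cycs 169 to 162 bases before. Ndufb4 held NRF1 letters at 191 to 182, 79 to 70 and 22 to 13 bases before the start, and Sdha at 98 to 89, 55 to 46 and 10 to 1. The windows of Ndufaf3 and Cox6b2 have no capitals. Ndufb2 and Cycs, with differences of -1.03 and -0.82, held no exact match of the NRF1 letters. Ndufb4 and Sdha, with 3 matches each, had differences of -0.70 and -0.42. The search took exact letters only, so a site with another base would be missed. A relation of the matches to the differences was not tested.

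From day -2 to day 0, as the cells reached confluence, no gene passed (0% of everything tested), with 10 of the 94 higher and 9 lower at an unadjusted p under 0.05 by limma (15.2% and 10.2% of everything tested). In 30 genes both lines were higher on day 0 (44.1% of everything tested) and in 38 both were lower (31.3%). The median change was -0.049 for the 94 and 0.080 for everything tested. Ndufa6, an accessory subunit of complex I, went from 2.38 to 3.08 in WT and from 2.20 to 3.27 in sh8 (0.88 ± 0.15, adjusted p = 0.0720). Cox7a1, the heart and muscle form of subunit 7A, went from -3.64 to -2.77 and from -3.48 to -2.82 (0.77 ± 0.13, adjusted p = 0.0720). Both genes read higher on day 0 in both lines. Ndufa4l2 was higher by 1.26 in WT and 2.75 in sh8 (2.01 ± 0.42, adjusted p = 0.0865). In the other direction Ndufa11, a membrane arm subunit, gave -0.81 (adjusted p = 0.0873), Cyc1 -0.70 (0.154) and Cycs -0.65 (0.0930).

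From day 0 to day +2, the first step under MDI, Cox6a2 was the only gene of the 94 to pass, lower, where 2.89% of everything tested was called lower and 9% higher. At an unadjusted p under 0.05 it was 2 higher and 1 lower (22% and 9.75%). Cox6a2 is the heart and muscle form of subunit 6A. It read -0.44, -0.17, -1.70 and -2.13 in WT and -0.51, -0.93, -2.79 and -2.57 in sh8. Both lines were high on days -2 and 0 and low on days +2 and +4, with no overlap (-1.70 ± 0.27, adjusted p = 0.0274). The call was lost without any 1 array of days 0, +2 or +4. Calls over everything tested also fell, from 3146 with all arrays to 1043 without either array of day +4. The widespread Cox6a1 had a difference of 0.033 (adjusted p = 0.884). Of the 6 muscle markers tested at this step 1 was called lower, Acta1 (-2.89, adjusted p = 0.0159), and none higher; 3 had a positive difference, and the median of the list was -0.022. The summed linear level of the muscle list was 0.321 to 1.01 on days -2 and 0 and 0.183 to 0.203 on days +2 and +4; its part in the Cox6a2 result was not tested.

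Cox8b, a form known from muscle and brown fat, was not well above background on any array of days -2 and 0 and was so on all 4 arrays of days +2 and +4, at -4.84 and -5.24 in WT and -4.24 and -4.52 in sh8. Day +2 was at least 2.01-fold higher than day 0, set against the lowest signal that counts as well above background (adjusted p = 0.0616 for the fitted 1.73). The brown fat list holds Cox8b itself and Cox7a1, so it is not separate from the genes described. Prdm16, also on the list, passed the filter only through arrays of days +2 and +4, as did Cox8b. Of the 6 brown fat markers tested at this step 2 were called higher and none lower. They were Dio2 (2.26, adjusted p = 0.0401) and Prdm16, which was not well above background on any array of days -2 and 0 and for which no difference is given. Ppargc1a had a difference of -1.06 (adjusted p = 0.176), and Ucp1 was not well above background on 7 of the 8 arrays. In the lung epithelium list 10 of 13 genes were called higher at the same step, beside 9% of everything tested. Of that list Sftpc, Scgb3a1, Napsa, Nkx2-1 and Slc34a2 were not well above background on any array of days -2 and 0. They passed the filter only through arrays of days +2 and +4, which favours a higher value there. The part of the list in the values of dim probes was not tested. Cycs had a difference of 0.49 ± 0.15 (adjusted p = 0.0956), and with the mean of its probes one of 0.78 (adjusted p = 0.0412). Both lines were higher on day +2 in 31 of the 94 genes (43.5% of everything tested) and lower in 29 (27.6%), and the median was 0.025, against 0.11 for everything tested.

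**Figure D4:**
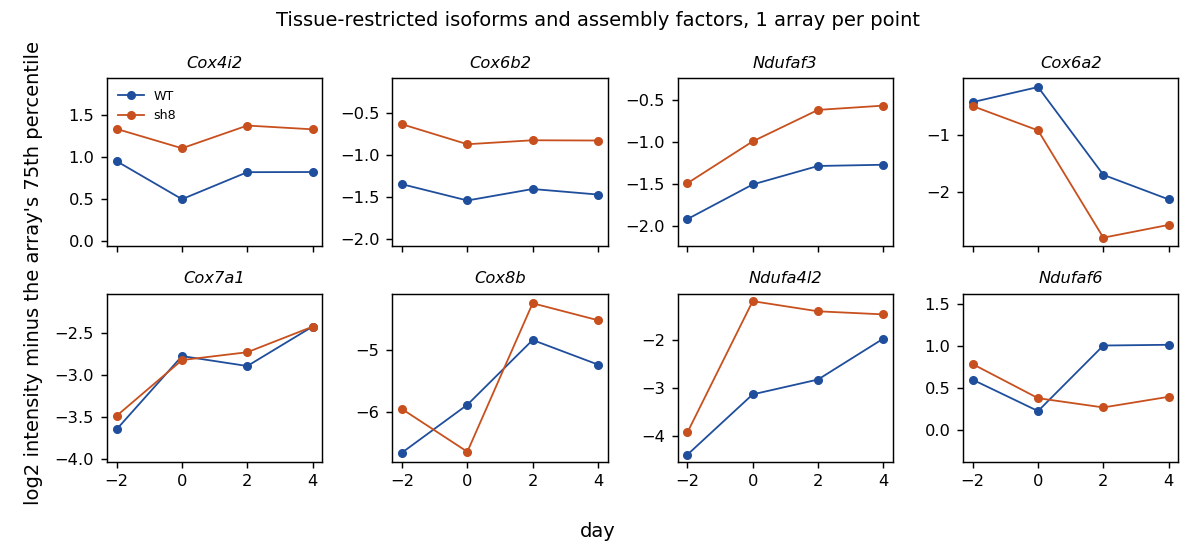
Relative log2 level (vertical axis, each panel with its own range of at least 2 units) against day for tissue-restricted forms of complex IV, Ndufa4l2 and the assembly factors Ndufaf3 and Ndufaf6. Each point is 1 array, in blue for WT and orange for sh8. Cox6a2 drops between days 0 and +2 in both lines, Cox4i2 and Cox6b2 are higher in sh8 on all 4 days, and Cox8b on days -2 and 0 was not well above background.

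From day +2 to day +4, within the second scan, no gene passed (0% of everything tested). At an unadjusted p under 0.05 by limma 2 of the 94 were higher and none lower (3.8% and 1.64% of everything tested). The fitted difference was positive for 80 of 94 (62.3% of everything tested), with a median of 0.16 against 0.077 for everything tested. Without the WT array of day +4 the median was 0.084 against 0.077, with 63 of 94 positive, and with quantile scaling it was 0.052 against 0.019. In 62 genes both lines were higher on day +4 (41.5% of everything tested), and in 5 both were lower (22.6%). WT was higher on day +4 in 85 of 94 and sh8 in 66. Over everything tested it was 16271 of 26460 in WT and 15197 in sh8. All 17 genes of complex V had a positive fitted difference, from 0.020 for Atp5d to 0.32 for Atp5mpl. The 2 genes were Cox6c, a subunit of complex IV, which went from 5.17 to 5.48 in WT and from 5.05 to 5.54 in sh8 (0.40 ± 0.14, adjusted p = 0.839), and Cox7a1, from -2.89 to -2.42 and from -2.72 to -2.42 (0.39 ± 0.13, adjusted p = 0.839).

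The rest of the mitochondrial programme was read from lists of other genes, in the comparison of sh8 with WT. Of 23 regulators of mitochondrial biogenesis 7 were lower and 1 was higher. The coactivator Ppargc1a, which switches on respiratory genes, read 1.64, 2.67, 1.44 and 1.40 in WT and -1.07, 0.87, -0.01 and 0.51 in sh8, without overlap (-1.71 ± 0.31, adjusted p = 0.0236). Its relative Ppargc1b had -3.06, -2.88, -4.01 and -3.30 against -4.63, -4.62, -5.83 and -4.93 (-1.69 ± 0.09, adjusted p = 0.00820). All sh8 arrays of both coactivators were below all WT arrays. The transcription factor Yy1 was lower (-0.48) and Gabpb1, a subunit of GABP, higher (0.51), while Nrf1 (0.15, adjusted p = 0.237), Gabpa (-0.24, 0.207) and Esrra (-0.31, 0.0539) did not pass.

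Of 39 assembly factors outside the naming rule 13 were lower and none higher, among them Coa3 (-1.08) and the copper carrier Cox17 (-0.76) for complex IV, Ttc19 (-0.80) for complex III and Atpaf2 (-0.77) for the ATP synthase. Of 77 mitochondrial ribosomal proteins 21 were lower and none higher, with Mrps25 (-1.26), Mrps14 (-0.87), Mrpl19 (-0.73) and Mrps35 (-1.16) first by p. Of 16 genes of the citric acid cycle and pyruvate dehydrogenase 6 were lower and none higher, among them Pdhb (-0.62), Fh1 (-0.65), Suclg1 (-0.60) and Dld (-0.81). Coenzyme Q synthesis had 2 of 13 lower (15.4%), Coq7 (-0.81) and Coq2 (-0.46). Inner membrane carriers had 3 of 10 lower, Slc25a12 (-0.86), Slc25a11 (-0.42) and Slc25a4 (-0.33). Over everything tested 10.3% were called lower and 16.8% higher. The medians of these lists lay between -0.36 for the citric acid cycle and -0.16 for coenzyme Q synthesis, beside the 0.13 of everything tested.

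**Figure D5:**
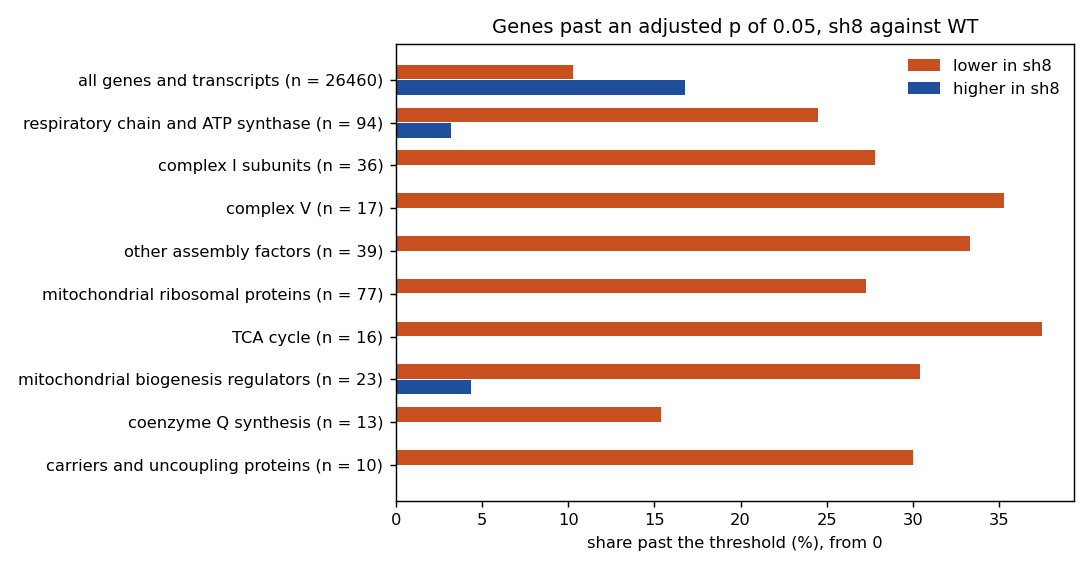
Share of genes past an adjusted p of 0.05 in sh8 against WT (percent, horizontal axis, from 0), lower in orange and higher in blue, for all genes and transcripts tested, the 94 respiratory chain and ATP synthase genes and further lists (vertical axis). Over everything tested 10.3% were lower and 16.8% higher; of the 94 genes 24.5% were lower, the dim Cox7b2 included, and 3.19% higher.

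Markers of other cell types also differed between the lines. Of 12 fat cell markers 4 were lower in sh8, namely Pparg (-1.59), Fabp4 (-1.54), Plin4 (-2.16) and Lpl (-1.39), and none was higher; the summed linear level of the list was 41.2 to 75.6 in WT and 13.4 to 27.8 in sh8. Among 13 markers of macrophages and leukocytes, sh8 was higher in 6 and lower in none, with sums of 6.73 to 9.03 in WT and 8.79 to 10.7 in sh8. Of this list Lyz2, Tyrobp, Laptm5 and Cd52 were not well above background on any array of days -2 and 0. Cd53 was not on the sh8 array of day 0. Of 9 preadipocyte and fibroblast markers tested 2 were higher, among them Thy1 (1.21), and 2 lower, among them Pdgfrb (-0.65). The median of that list was 0.086. Over everything tested 16.8% were called higher and 10.3% lower. The part of these markers in the differences of the respiratory genes was not tested.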

How the data were processed

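Scanner output was read for all 8 arrays; 1 array per line and day makes each group a single sample. Per the file headers the deposited files come from Agilent Feature Extraction 11.0.1.1 and hold an intensity per spot on a linear scale, background-subtracted by that software. The series matrix holds the authors' deposited log2 values, of which all 8 columns have a median of 6.38 and correlate at 0.994 to 1.00 with the scanner values of their own array. Which normalization made them is not stated there. Of 44397 spots 1377 were controls and were left out; 46 of 39429 probes were left out for outlier flags, and no spot was saturated.

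Intensity was put on a log2 scale minus each array's 75th percentile. Symbols came from a GRCm38.p6 table, by the RefSeq accession that the files give for a probe. Of the 39429 probes 12195 had no symbol. RefSeq names 18 pseudogene loci for 11 of the genes, which a probe may also read. The fit (limma 3.58.1, R 4.3.3) had day as a factor of 4 levels plus line, with 3 residual degrees of freedom, and 2 for the interaction of line with days +2 and +4. p-values were adjusted by Benjamini-Hochberg over 26460 genes and transcripts, at 0.05; the fit was tested on simulated data. Genes were named by role: the called members of lowest p, up to 4 a direction, or up to 2 where none passed, plus fixed single genes; other members were named after their values were seen. Members and lists were chosen with earlier results of these data known. For normexp (offset 50) the median signal was used, as the files hold no mean signal. The number of arrays limits the precision. Alternatives tried were quantile scaling, a percentile over detected probes, normexp, the authors' values, other filters, the mean of a gene's probes, the scan as a block, each scan alone, and leaving out each array or day.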

Additional observations from a re-analysis of the deposited data

How the results depend on the processing

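Between the lines, the count of 26 called genes became 14 without either array of day -2 and 0 without any array of the other days, where 28, 26 and 27 genes passed at an unadjusted p under 0.05 by limma without day 0, day +2 and day +4; leaving out 1 array removes its day from this comparison. It was 0 in the first scan alone (17 at an unadjusted p under 0.05; median -0.15) and 10 in the second alone (median -0.28). Under the 8 settings run on all arrays it was 18 (no filter) to 34 (probes well above background on all 8 arrays). All-gene calls were 7157, and 5330 without the filter. They were 4206 without day -2, 79 without day 0 and 0 without day +2 or day +4. In the first scan alone they were 0, and in the second 5164. The share of higher calls among all-gene calls was 62.0%, and 50.7% with quantile scaling. It was 50.5% with normexp, 51.0% with the authors' values and 73.4% with the percentile over detected probes. The median of everything tested lay at 0.023 with quantile scaling and at 0.23 with the percentile over detected probes, and that of the 94 genes at -0.15 and -0.11. Of the 26 calls 15 held under all 8 settings. Cox4i1, Ndufs8, Sdha and Uqcrq lost theirs under 5 of the 8, Ndufa8 under 6, and Cox7b2 with normexp.

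Day 0 against day -2 gave 0 calls, and 4 with normexp (Ndufa6, Ndufv3 and Uqcrh higher, Cycs lower). Over probes well above background on all 8 arrays it gave 6. Over everything tested these settings called 1747 of 26460 and 1669 of 19780. The median of the members, -0.049, lay between -0.13 and 0.065 with an array left out. It turned positive (0.065) without sh8 day -2. Day +2 against day 0 gave 2 with the mean of a gene's probes (Cox6a2 and Cycs) against 1. Over everything tested these settings called 3161 and 3146. The count was 1 without either array of day -2 and 0 without either of day +4, where 2505 and 1043 of everything tested passed. Leaving out an array of day 0 or +2 leaves 1 array on that day, and the Cox6a2 call was lost there too. The median of the members, 0.025, lay between -0.022 and 0.053 without either array of day +2. It turned negative (-0.022) without that of WT. The interaction gave 1, Ndufaf6, with normexp and over probes well above background on all 8 arrays. Over everything tested it gave 1112 of 26460 and 1118 of 19780 under these settings. The cause of these shifts was not tested. Every sample carries the same replicate number, so a block by replicate number cannot be fitted. The lines are paired by day, with day as a term of the fit. Signal near background limits Cox7b2, Cox8b and Cox8c.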
